A study of Mus musculus with 18 samples.

Results

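The 37 genes described here encode plasma proteins that the liver secretes for blood clotting (21 genes) and for complement (16 genes). They were chosen by symbol from their known function and were found by matching the Ensembl identifiers of a table of 55335 genes to GENCODE M21 symbols. All 37 were found, and all 37 were among the 17013 genes with enough counts to test. The values come from bulk poly-A RNA-seq of liver tumours of mice in 12 libraries, 3 in each of 4 groups. In N-Ras+AKT Prom1 depletion and N-Ras+AKT control mice, 20 µg each of the plasmids pT3-EF1a-NRasV12 and pT3-EF1a-myr-AKT, with 1.6 µg of Sleeping Beauty transposase, were given by hydrodynamic tail vein injection, a route that brings DNA mainly into hepatocytes. In DEN+CCl4 Prom1 depletion and DEN+CCl4 control mice, the carcinogen DEN (1 mg/kg, at 14 days of age) was followed by the liver toxin CCl4 (0.2 ml/kg, from 8 weeks of age, for 12 to 16 weeks). Repeated tamoxifen doses of 4 mg are recorded for all 12 libraries, controls included. In the depletion groups, tamoxifen turns on a Cre expressed from the Prom1 locus. The Cre in turn starts diphtheria toxin A production in the cells that express Prom1. Tumours were taken 6 days (N-Ras+AKT) or 16 days (DEN+CCl4) after the last dose. The strain label of all 12 libraries is Prom1C-L/+;Rosa26DTA/+, whereas the design text gives the control littermates as Prom1+/+;Rosa26DTA/+ and also names an olive oil vehicle, so what the controls lacked is not settled by the labels. The Cre marks Prom1-expressing cells of any kind, and loss of cells cannot be told apart from an effect of the modified Prom1 allele on Prom1 RNA itself.

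Clotting runs through a cascade of proenzymes that ends with thrombin turning fibrinogen into fibrin. Plasma inhibitors limit it, and plasmin dissolves the clot. Complement is started by the classical, lectin or alternative pathway, which meet at C3, and ends in the terminal components that form a pore in membranes. Hepatocytes are the main source of most of these proteins in blood, and loss of their RNA is often used as a sign of lost hepatocyte function in liver tumours.

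The libraries held 31306617 to 48055812 counts. Prom1 RNA, the check of the labels, stood at 5.81, 16.5 and 2.17 CPM (counts per 1000000 of the TMM-adjusted library size) in N-Ras+AKT depletion tumours, against 45.4, 59.2 and 78.2 CPM in N-Ras+AKT controls, a log2 change of -2.90 (SE 0.61, adjusted p = 0.00953, edgeR quasi-likelihood test with Benjamini-Hochberg adjustment). In DEN+CCl4 tumours Prom1 stood at 17.4, 40.0 and 35.7 CPM after depletion, against 60.1, 76.7 and 48.9 CPM in controls, and its log2 change of -1.0 did not pass (adjusted p = 0.381). Depletion and control libraries did not overlap for Prom1 in either model. All 12 libraries had the Y-linked transcript Ddx3y (at least 2291 counts) and almost no Xist (at most 49 counts). On principal components, N-Ras+AKT depletion replicate 17 and DEN+CCl4 depletion replicate 6 stood apart from their groups, and results that rest on them are given without them. The labels do not say that the 3 libraries of a group came from separate mice, so a p-value measures the spread between these libraries.

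Compared with each other per kilobase of exon, the members covered a wide range of levels. C3, the central protein of complement, led in all 4 groups, at 2041 and 1400 CPM per kb on average in N-Ras+AKT depletion and control tumours and at 2601 and 2576 CPM per kb in DEN+CCl4 depletion and control tumours. The fibrinogen chain genes Fga, Fgb and Fgg and the kininogen gene Kng1 followed in each group, at 591 to 1855 CPM per kb. The lowest member was F11, the factor XI proenzyme, in N-Ras+AKT depletion tumours (13.6 CPM per kb). In N-Ras+AKT controls it was Masp1, a lectin pathway protease (9.16 CPM per kb). In both DEN+CCl4 groups it was C6, a terminal component, at 3.76 CPM per kb after depletion and 8.00 CPM per kb in controls. Within groups, the median coefficient of variation over 3 libraries was between 13.2% and 19.6% for either list. The widest spread was that of C8a in DEN+CCl4 depletion tumours, at 73.3%.

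**Figure D1:**
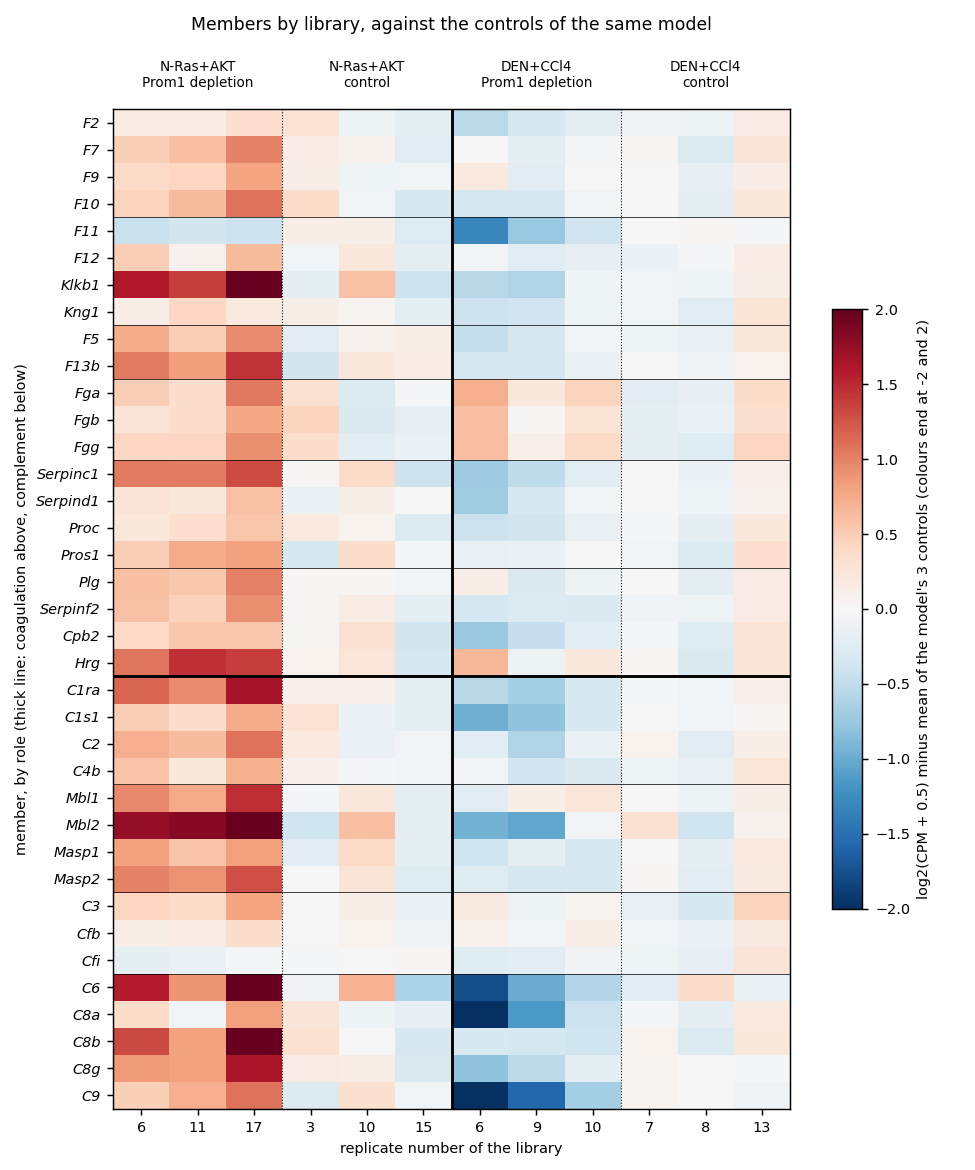
Each row is a member (coagulation above, complement below) and each column a library. Colour is the log2 ratio of its CPM (with a pseudocount of 0.5) to the mean of the control libraries of the same model. Most rows are red in the N-Ras+AKT depletion columns, most in replicate 17, which was the highest of its group for 18 of 21 coagulation and 16 of 16 complement members, and most are blue in the DEN+CCl4 depletion columns.

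In N-Ras+AKT tumours, depletion of Prom1-expressing cells went with higher RNA of clotting and complement genes. Of the 37 members, 20 rose (11 of 21 coagulation and 9 of 16 complement), where 12.8% of all genes tested rose. None fell past the threshold, where 10.8% of all genes tested fell (edgeR, 1 member lower at an unadjusted p under 0.05, 0 lower by DESeq2 and by limma voom). The median log2 change was 0.65 for coagulation and 0.80 for complement members, beside -0.02 for all genes tested, and 35 of 37 members had a positive value. The 3 depletion libraries lay above all 3 controls for 17 coagulation and 14 complement members, where 21.4% of all genes did, and below them for 1 member, where 21.5% did. In a bulk sample, fewer cells of a type and less RNA per cell cannot be told apart, and the same holds for more of either. Without N-Ras+AKT depletion replicate 17 the count of coagulation members that rose was 4, where 5.6% of all genes tested rose. Without N-Ras+AKT control replicate 15 it was 5, where 6.99% of all genes tested rose. The complement count ran from 7 to 10 over the 6 left-out libraries, where the share of all genes that rose ran from 5.6% to 13%. With library totals in place of TMM factors, 7.79% of all genes rose and 19.0% fell, with a median of -0.23, and 8 coagulation and 9 complement members still passed as higher.

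**Figure D2:**
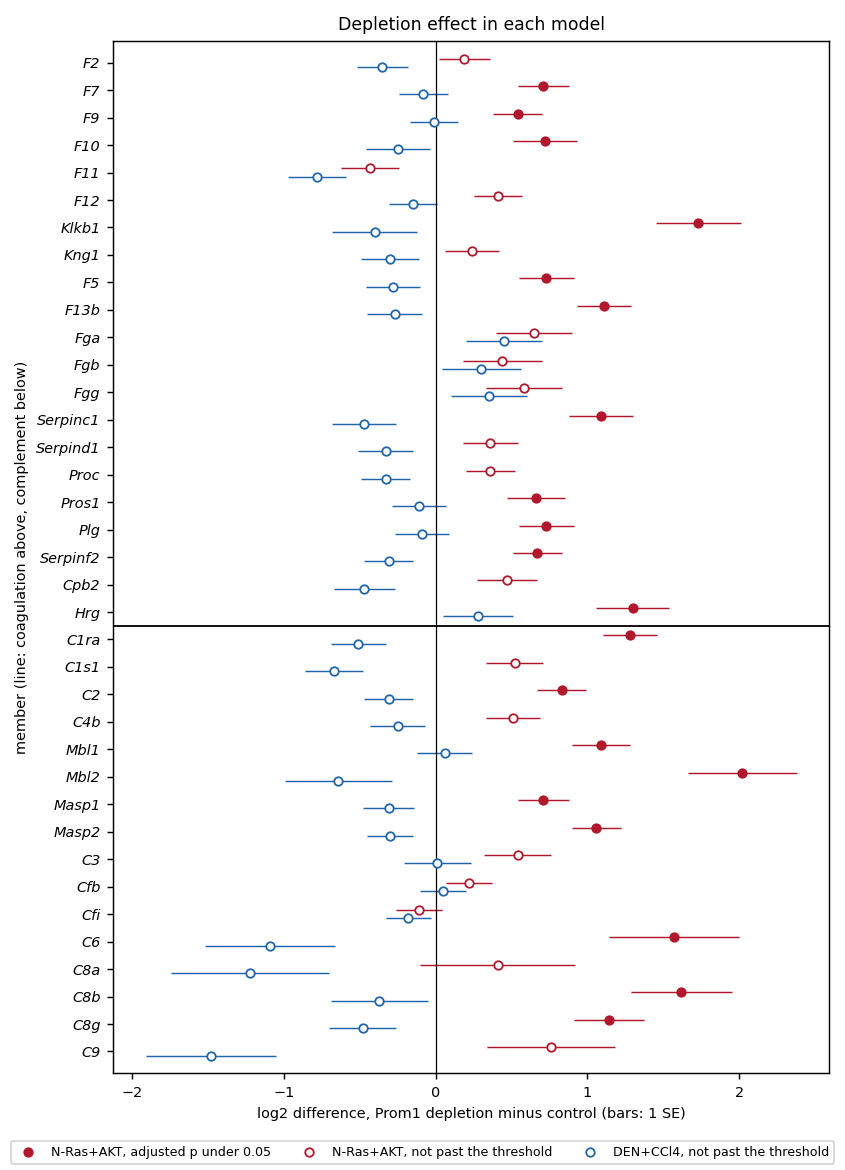
Points are the log2 difference of depletion minus control for each member in N-Ras+AKT (red) and DEN+CCl4 (blue) tumours, with bars of 1 SE. Filled points passed an adjusted p under 0.05: 20 members in N-Ras+AKT and none in DEN+CCl4.

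All 4 members of the lectin pathway rose. Its recognition proteins are mannose-binding lectins, which bind sugars on microbes. Mbl2 stood at 186, 193 and 313 CPM in N-Ras+AKT depletion tumours, against 41.1, 82.5 and 47.4 CPM in controls. Every depletion library was above every control library. The log2 change was 2.02 (SE 0.36, 4.04-fold, adjusted p = 0.00508). Mbl1 stood at 94.8, 83.0 and 136 CPM after depletion, against 48.0, 56.3 and 42.5 CPM in controls (log2 change 1.09, SE 0.19, adjusted p = 0.00426). The groups did not overlap for Mbl1 either. The proteases that the lectins carry, Masp2 and Masp1, rose by 1.06 (SE 0.16, adjusted p = 0.00334) and 0.71 (SE 0.17, adjusted p = 0.0133) on the log2 scale. The Masp1 call ended without N-Ras+AKT control replicate 3 (adjusted p = 0.0524) or 15 (adjusted p = 0.0530).

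In the classical pathway, which starts from antibody bound by C1q, C1ra and C2 rose. C1ra, the protease that activates C1s, stood at 176, 152 and 248 CPM in N-Ras+AKT depletion tumours, against 84.4, 84.0 and 68.2 CPM in controls. The lowest depletion library was far above the highest control. Its log2 change was 1.28 (SE 0.18, 2.43-fold, adjusted p = 0.00334). C2, a subunit of the C3 convertase, rose by 0.83 (SE 0.16, adjusted p = 0.00641). C1s1, the gene of the C1s protease 6.90 kb from C1ra, had a log2 change of 0.52 (adjusted p = 0.0710) and C4b, the partner of C2 in the convertase, one of 0.51 (adjusted p = 0.0576). Neither of these passed, although their depletion libraries all lay above the controls. C1ra, C1s1 and C4b have close copies in the mouse (C1rb, C1s2 and C4a), between which the counting could have split reads, so their values are uncertain in that respect.

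The terminal components were uneven. C8b, the beta chain of C8, stood at 93.4, 65.6 and 191 CPM in N-Ras+AKT depletion tumours, against 46.2, 37.6 and 29.9 CPM in controls (log2 change 1.62, SE 0.33, adjusted p = 0.00768). C8g, the gamma chain, stood at 82.4, 81.1 and 142 CPM after depletion, against 51.1, 49.99 and 37.2 CPM in controls (log2 change 1.14, SE 0.23, adjusted p = 0.00650). C6, which binds the C5b fragment at the start of the pore, stood at 108, 67.3 and 171 CPM after depletion, against 34.5, 58.6 and 23.3 CPM in controls (log2 change 1.57, SE 0.43, adjusted p = 0.0247). In all 3 genes the groups were apart and replicate 17 was the highest library. The C6 call ended without depletion replicate 6 (adjusted p = 0.0516), depletion replicate 17 (adjusted p = 0.111), control replicate 3 (adjusted p = 0.0866) or control replicate 15 (adjusted p = 0.0834), and with no filter on low counts (adjusted p = 0.0801). C8a, the alpha chain of C8, whose gene lies 11.1 kb from C8b, stood at 468, 348 and 638 CPM after depletion, against 435, 338 and 323 CPM in controls, so its groups overlapped (log2 change 0.41, SE 0.51, adjusted p = 0.601). C9, the pore-forming component, had a log2 change of 0.76 (SE 0.42, adjusted p = 0.218). None of the 3 members at C3 and the alternative pathway passed. C3 had a log2 change of 0.54 (adjusted p = 0.100), Cfb, the protease of the alternative C3 convertase, one of 0.22 and Cfi, which cleaves C3b, one of -0.11. Cfb lies 85 bases from C2, which rose as given above.

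Among clotting genes the contact system held both the highest and the lowest change. Klkb1, the gene of plasma prekallikrein, which activates factor XII and releases bradykinin, stood at 169, 146 and 262 CPM in N-Ras+AKT depletion tumours, against 49.1, 83.2 and 41.7 CPM in controls. The groups did not overlap. The log2 change was 1.73 (SE 0.28, 3.32-fold, adjusted p = 0.00381). F11, a homologue of Klkb1 that lies 4.66 kb from it on the same strand, stood at 29.8, 31.6 and 30.3 CPM after depletion, against 45.0, 44.4 and 34.2 CPM in controls. Here the depletion libraries were all below the controls, but the log2 change of -0.43 (SE 0.19, adjusted p = 0.115) did not pass. F12 (factor XII) had a log2 change of 0.41 and Kng1 (kininogen, the source of bradykinin) one of 0.24, and neither passed. Kng1 has a near-identical copy, Kng2, so its reads may be shared.

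Of the cofactor and cross-linking genes, both rose. F13b, the carrier subunit of the clot-stabilising factor XIII, stood at 166, 145 and 219 CPM in N-Ras+AKT depletion tumours, against 62.2, 93.7 and 89.6 CPM in controls (log2 change 1.11, SE 0.18, adjusted p = 0.00380). F5, the cofactor of factor Xa, stood at 639, 537 and 730 CPM after depletion, against 329, 404 and 416 CPM in controls (log2 change 0.73, SE 0.18, adjusted p = 0.0154). Both genes had groups that were apart, but F5 did not pass without depletion replicate 17 (adjusted p = 0.0641) or control replicate 3 (adjusted p = 0.0588). Of the vitamin K-dependent proenzymes, F10, F7 and F9 rose, by 0.72, 0.71 and 0.54 on the log2 scale (adjusted p from 0.0122 to 0.0294), and F2 (prothrombin) had a log2 change of 0.19 (adjusted p = 0.445). F7 and F10, neighbours 1.5 kb apart, had almost equal values. Without depletion replicate 17 the adjusted p was 0.0542 for F7, 0.129 for F10 and 0.130 for F9, and without control replicate 15 it was 0.0514, 0.106 and 0.0852 for the same genes in that order. Without control replicate 10 it was 0.0670 for F10 and 0.0667 for F9. The F10 and F9 calls also ended with library totals alone (adjusted p = 0.0582 and 0.121) and in a fit of only the N-Ras+AKT groups (adjusted p = 0.0762 and 0.0623).

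The inhibitors and the clot-dissolving system rose in part. Serpinc1 encodes antithrombin, the main inhibitor of thrombin and factor Xa. It stood at 1285, 1276 and 1554 CPM in N-Ras+AKT depletion tumours, against 638, 820 and 473 CPM in controls, with no overlap (log2 change 1.09, SE 0.21, adjusted p = 0.00600). Hrg, the gene of histidine-rich glycoprotein, which binds plasminogen and heparin, stood at 674, 888 and 841 CPM after depletion, against 339, 382 and 257 CPM in controls (log2 change 1.3, SE 0.24, adjusted p = 0.00500). Its neighbour Kng1, 96.2 kb away, did not pass, as given above. Plg, the gene of plasminogen, stood at 1321, 1264 and 1765 CPM after depletion, against 888, 893 and 842 CPM in controls (log2 change 0.73, SE 0.18, adjusted p = 0.0161). The Plg groups were apart, but the call ended without depletion replicate 17 (adjusted p = 0.0739) or control replicate 15 (adjusted p = 0.0559). Serpinf2 (the plasmin inhibitor) and Pros1 (protein S, a cofactor of activated protein C) rose by 0.67 and 0.66 on the log2 scale (adjusted p = 0.0138 and 0.0246). Without depletion replicate 17 the adjusted p was 0.0619 for Serpinf2 and 0.0870 for Pros1, and without control replicate 15 it was 0.0563 for Serpinf2 and 0.0749 for Pros1. Pros1 also did not pass without depletion replicate 11 (adjusted p = 0.0519) or control replicate 3 (adjusted p = 0.0881), with library totals alone (adjusted p = 0.0628) or in a fit of only the N-Ras+AKT groups (adjusted p = 0.0539). Cpb2 (a carboxypeptidase that slows fibrinolysis), Serpind1 (heparin cofactor II) and Proc (protein C) had log2 changes of 0.47, 0.36 and 0.36 and did not pass.

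The fibrinogen chains, which with Kng1 had the highest levels of the clotting members per kilobase in all 4 groups, did not pass in either model. In N-Ras+AKT tumours, Fga stood at 3384, 3082 and 4988 CPM after depletion, against 2989, 1999 and 2337 CPM in controls (log2 change 0.65, SE 0.25, adjusted p = 0.0849). Fgg and Fgb had log2 changes of 0.58 (adjusted p = 0.108) and 0.44 (adjusted p = 0.233). In DEN+CCl4 tumours, Fga stood at 5903, 4104 and 4874 CPM after depletion, against 3086, 3184 and 4594 CPM in controls (log2 change 0.45, adjusted p = 0.360). The 3 genes lie within one stretch of chromosome 3, Fga 11.0 kb from Fgg and 6.51 kb from Fgb, and had positive values in both models.

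To set genes that rose beside the fibrinogen genes, promoter windows are printed of the members with the largest N-Ras+AKT change in the lectin pathway (Mbl2), the classical pathway (C1ra) and the contact system (Klkb1). C8b, C6 and Hrg, which changed more than C1ra, are not printed, and of their windows only that of Hrg holds a match (C/EBP). These are RefSeq windows on GRCm38.p6, 250 bases before to 50 bases after the start, given 5′ to 3′ on the strand of the gene. Capitals mark matches on either strand to the C/EBP motif TTGCNNAA or the STAT motif TTCNNNGAA, families of factors that act in hepatocytes. The windows are Mbl2 at chr19:30232678-30232977 (plus strand), C1ra at chr6:124512371-124512670 (plus), Klkb1 at chr8:45294786-45295085 (minus), Fga at chr3:83025903-83026202 (plus), Fgb at chr3:83049814-83050113 (minus) and Fgg at chr3:83007474-83007773 (plus).
Mbl2: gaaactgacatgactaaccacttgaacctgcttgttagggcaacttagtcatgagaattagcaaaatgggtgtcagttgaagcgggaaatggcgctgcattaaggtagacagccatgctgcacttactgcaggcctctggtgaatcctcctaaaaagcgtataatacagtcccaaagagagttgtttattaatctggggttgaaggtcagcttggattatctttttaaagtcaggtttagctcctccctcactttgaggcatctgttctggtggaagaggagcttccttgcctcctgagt
C1ra: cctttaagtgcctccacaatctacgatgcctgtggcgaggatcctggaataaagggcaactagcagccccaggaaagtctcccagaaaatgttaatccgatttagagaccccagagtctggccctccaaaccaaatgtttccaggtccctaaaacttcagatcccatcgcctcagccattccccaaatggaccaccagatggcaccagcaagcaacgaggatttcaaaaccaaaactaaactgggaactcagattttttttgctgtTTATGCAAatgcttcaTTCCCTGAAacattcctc
Klkb1: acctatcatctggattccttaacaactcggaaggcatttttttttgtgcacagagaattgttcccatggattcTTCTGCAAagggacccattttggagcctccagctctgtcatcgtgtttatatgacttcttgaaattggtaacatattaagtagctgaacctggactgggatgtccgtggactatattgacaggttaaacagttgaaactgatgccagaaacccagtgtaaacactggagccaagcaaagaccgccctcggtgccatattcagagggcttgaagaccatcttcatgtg
Fga: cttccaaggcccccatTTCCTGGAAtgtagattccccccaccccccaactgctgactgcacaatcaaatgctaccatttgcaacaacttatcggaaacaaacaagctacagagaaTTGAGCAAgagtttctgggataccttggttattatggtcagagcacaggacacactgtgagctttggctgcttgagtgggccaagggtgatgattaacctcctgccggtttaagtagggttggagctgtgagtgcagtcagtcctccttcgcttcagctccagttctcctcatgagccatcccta
Fgb: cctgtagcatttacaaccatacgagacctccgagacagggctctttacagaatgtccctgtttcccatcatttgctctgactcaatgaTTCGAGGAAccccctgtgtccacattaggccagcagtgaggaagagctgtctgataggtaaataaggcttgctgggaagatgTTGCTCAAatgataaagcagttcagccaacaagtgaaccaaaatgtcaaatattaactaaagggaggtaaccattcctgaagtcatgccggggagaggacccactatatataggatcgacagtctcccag
Fgg: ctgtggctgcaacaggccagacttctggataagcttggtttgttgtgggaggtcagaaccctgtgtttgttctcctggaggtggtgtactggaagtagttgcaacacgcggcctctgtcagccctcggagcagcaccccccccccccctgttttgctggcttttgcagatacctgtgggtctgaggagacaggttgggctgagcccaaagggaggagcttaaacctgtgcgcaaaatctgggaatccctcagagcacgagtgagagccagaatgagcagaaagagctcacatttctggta
The Mbl2 and Fgg windows hold no match, the Klkb1 window holds a C/EBP match only, and the C1ra, Fga and Fgb windows hold a match to each motif, none of them overlapping. Windows were given for 29 of the 37 members, and no window was given for Proc, Plg, Kng1, C2, C4b, Cfb, Cfi and Masp1. The C/EBP motif was found in 12 of these 29 members (41.4%), beside 10.8% of the 32851 windows of all genes, and the STAT motif in 7 members (24.1%), beside 8.30%. The HNF4 motif TGNACTTTG was found in F9 and Serpind1, 6.90% of the 29 members, beside 1.41% of all windows. A longer motif of NF-kB, given by name only, was found in no member window, beside 5.56% of all windows. Both strands were searched, and a match says only that these letters are present.

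**Figure D3:**
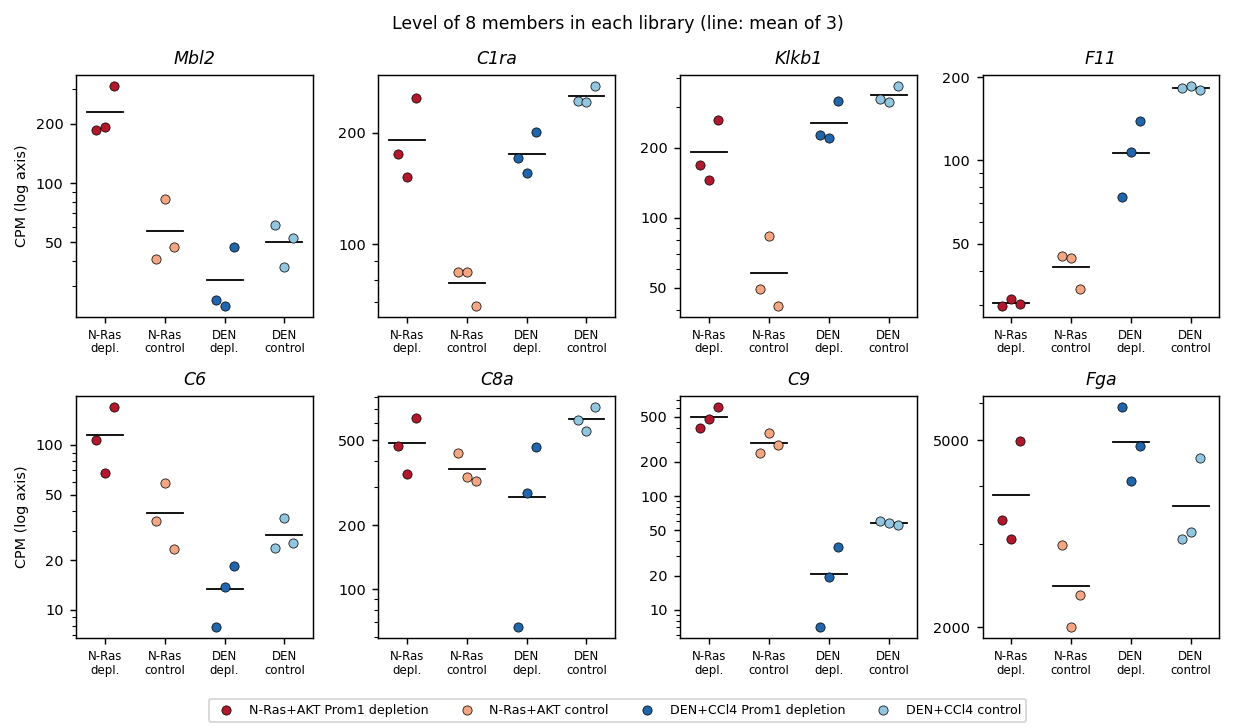
Each point is the CPM of a member in a library (log axis) and each line the mean of 3 libraries, for 4 groups. Mbl2, C1ra, Klkb1 and C6 are higher in all N-Ras+AKT depletion libraries than in their controls. C8a, C9 and F11 are lower in all DEN+CCl4 depletion libraries than in theirs.

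In DEN+CCl4 tumours no member passed after depletion, in either direction. Of all genes tested, 0.112% rose and 0.259% fell (0.370% in either direction, 63 genes). At an unadjusted p under 0.05 there were 8 of 37 members, beside 3186 of all 17013 genes tested. DESeq2 called 3 members as lower (F11, C9 and C1s1), where it called 4.04% of all genes lower, and limma voom called none. Negative log2 values were found for 30 of 37 members, with medians of -0.27 for coagulation and -0.34 for complement, beside -0.01 for all genes tested. Depletion libraries lay below all controls for 5 coagulation and 9 complement members, where 16.0% of all genes did, and above them for none, where 11.5% did.

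The 7 members with the lowest values in DEN+CCl4 tumours, named after their values were seen, were the terminal complement genes C9, C8a and C6, then F11, C1s1, Mbl2 and C1ra. C9 stood at 7.03, 19.2 and 35.7 CPM after depletion, against 60.1, 58.2 and 55.1 CPM in DEN+CCl4 controls (log2 change -1.48, SE 0.43, adjusted p = 0.117). C8a stood at 66.4, 284 and 464 CPM after depletion, against 619, 554 and 718 CPM in controls (log2 change -1.22, SE 0.52, adjusted p = 0.238). C6 stood at 7.84, 13.7 and 18.5 CPM after depletion, against 23.8, 36.0 and 25.6 CPM in controls (log2 change -1.09, SE 0.43, adjusted p = 0.212). In all 3, depletion replicate 6, which stands apart on principal components, was the lowest library and replicate 10 the highest, and the groups did not overlap. Without replicate 6 the log2 change was -1.07 for C9 (adjusted p = 0.194), -0.75 for C8a (adjusted p = 0.325) and -0.82 for C6 (adjusted p = 0.534). F11 stood at 74.0, 107 and 138 CPM after depletion, against 182, 186 and 179 CPM in controls (log2 change -0.78, SE 0.19, adjusted p = 0.0758). Its controls were close together and its depletion libraries were spread. C1s1, Mbl2 and C1ra had log2 changes of -0.67 (adjusted p = 0.108), -0.64 (adjusted p = 0.350) and -0.51 (adjusted p = 0.161). Without depletion replicate 10 the adjusted p was 0.0248 for F11, 0.0275 for C9 and 0.0383 for C1s1, and without the filter on low counts it was 0.0457 for F11. The fibrinogen genes, Hrg, C3, Cfb and Mbl1 made up the 7 members with positive values, from 0.01 to 0.45 on the log2 scale.

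The depletion effects of the models were compared directly by testing their difference, N-Ras+AKT minus DEN+CCl4, in the same fit. This contrast shares its libraries with both depletion comparisons and is not independent of them. The difference was positive for all 37 members and passed for 17, 6 coagulation and 11 complement, where 7.98% of all genes tested passed as higher. None passed as lower, where 3.60% of all genes did (edgeR, 0 lower at an unadjusted p under 0.05, 0 by DESeq2 and by limma voom). The median was 0.78 for coagulation and 1.28 for complement, beside -0.03 for all genes tested. With library totals in place of TMM factors 4.86% of all genes passed as higher and 12.6% as lower, with a median of -0.36, and 3 coagulation and 10 complement members passed as higher.

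Mbl2, C6 and C9 had the largest differences among the members that passed. For Mbl2 the depletion effect was 2.02 in N-Ras+AKT and -0.64 in DEN+CCl4 tumours on the log2 scale, a difference of 2.66 (SE 0.50, adjusted p = 0.0130). For C6 the effects were 1.57 and -1.09, a difference of 2.66 (SE 0.61, adjusted p = 0.0222). For C9 they were 0.76 and -1.48, a difference of 2.24 (SE 0.61, adjusted p = 0.0383). Neither C9 effect passed by itself. C8b, C1ra and C8g differed by 1.99, 1.80 and 1.63 (adjusted p from 0.00681 to 0.0222). Among clotting genes, the difference was 2.13 for Klkb1 (SE 0.39, adjusted p = 0.0117), 1.56 for Serpinc1 (SE 0.30, adjusted p = 0.0126) and 1.38 for F13b (SE 0.26, adjusted p = 0.0117). F5, Serpinf2 and F7 differed by 1.01, 0.98 and 0.79 (adjusted p from 0.0215 to 0.0481). The other complement members that passed were C1s1, C2, Masp1, Masp2 and Mbl1, which differed by 1.02 to 1.36. F11 (0.34), the fibrinogen chains (0.14 to 0.24), Cfb (0.17) and Cfi (0.08) had the smallest differences, and none of these passed. Depletion libraries lay above all controls in N-Ras+AKT and below all controls in DEN+CCl4 for 3 coagulation and 8 complement members, where 4.33% of all genes tested did.

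The number of members that passed this test depended on single libraries. So did the share of all genes tested that passed as higher, 7.98% in the main fit. The coagulation count was 3 without N-Ras+AKT depletion replicate 17, DEN+CCl4 depletion replicate 9 or DEN+CCl4 control replicate 13. The share of all genes in these fits was 3.74%, 4.04% and 4.84% in that order. It was 4.18% without N-Ras+AKT control replicate 15 and 4% without DEN+CCl4 control replicate 7. The complement count was 5 without N-Ras+AKT control replicate 15, 6 without DEN+CCl4 depletion replicate 9, and 7 without N-Ras+AKT depletion replicate 17, DEN+CCl4 control replicate 7 or DEN+CCl4 control replicate 13. Without both libraries that stand apart, 3 coagulation and 7 complement members passed, where 3.48% of all genes tested did. Klkb1, Serpinc1, F13b, C1ra, C2, C8g, Masp2 and Mbl2 passed with any of the 12 libraries left out, whereas F5, F7, Serpinf2, C6, C8b, C9, C1s1, Masp1 and Mbl1 each lost the call for at least 1 of them, with adjusted p-values of at most 0.120. With library totals alone the calls of F5, F7, Serpinf2 and Masp1 ended (adjusted p = 0.0611, 0.136, 0.0552 and 0.0542), with no filter on low counts those of C6, C8b and C9 (adjusted p = 0.0654, 0.0549 and 0.110), and with limma voom that of F7 (adjusted p = 0.0554).

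**Figure D4:**
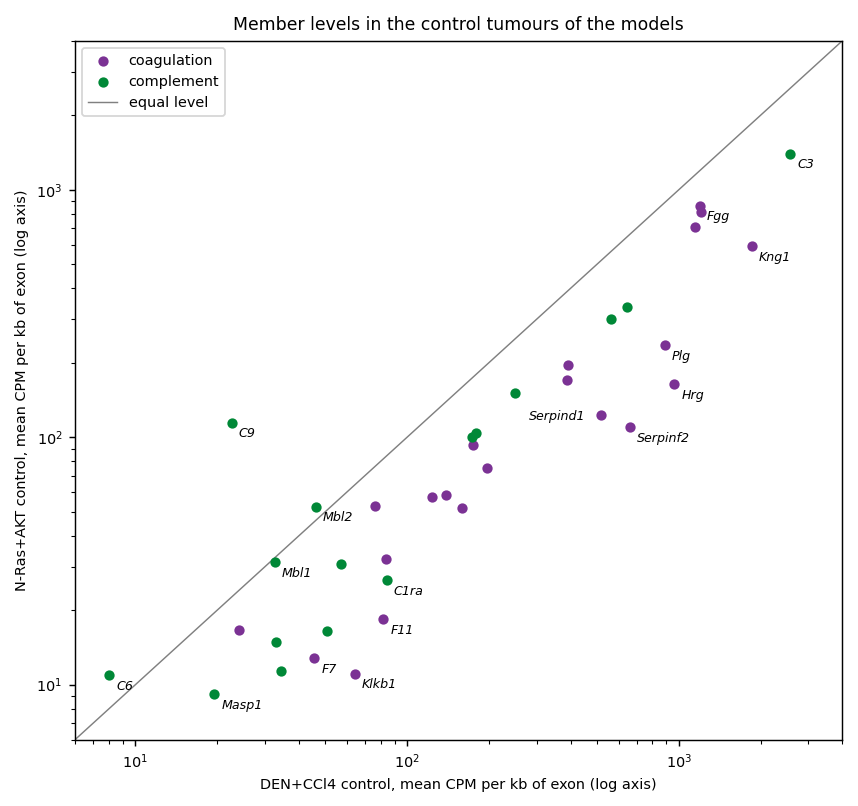
Each point is a member, at its mean level in DEN+CCl4 controls (x axis) and in N-Ras+AKT controls (y axis), both in CPM per kb of exon on log axes. The line marks equal levels. Most points lie below it, and C9 lies above.

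The control tumours of the models also differed from each other in these genes. In N-Ras+AKT controls, 30 of 37 members were lower than in DEN+CCl4 controls (19 of 21 coagulation and 11 of 16 complement), where 19.8% of all genes tested were lower. C9 was the only member called higher, where 20.8% of all genes tested were higher. The median log2 difference was -1.37 for coagulation and -0.88 for complement, beside 0.04 for all genes tested. Lower values were not particular to these members. Of 10 hepatocyte markers 7 were lower and 1 higher, with a median of -1.42. Of 16 hepatocyte transcription factor genes 9 were lower and 1 higher, with a median of -0.49. N-Ras+AKT controls lay below all DEN+CCl4 controls for 19 coagulation and 12 complement members, where 26.1% of all genes did, and above them for 1, where 28.4% did. These control libraries are those used in the depletion comparisons. The tumours of each model also differ in time after the last dose and in how they were induced, which cannot be told apart here. With library totals in place of TMM factors the median of all genes was 0.68, 55.3% of genes passed as higher and 6.22% as lower, and 14 coagulation and 4 complement members passed as lower and 4 complement members as higher. F9 and Pros1 changed sign under that scaling, both to 0.12.

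The plasmin inhibitor gene Serpinf2 had the largest drop, at 260, 281 and 224 CPM in N-Ras+AKT controls, against 1449, 1431 and 1714 CPM in DEN+CCl4 controls (log2 difference -2.59, SE 0.17). Hrg stood at 339, 382 and 257 CPM in N-Ras+AKT controls, against 1933, 1553 and 2273 CPM in DEN+CCl4 controls (log2 difference -2.56, SE 0.25). Klkb1 stood at 49.1, 83.2 and 41.7 CPM in N-Ras+AKT controls, against 326, 316 and 371 CPM in DEN+CCl4 controls (log2 difference -2.54, SE 0.29). None of these groups came near each other. F11 and Serpind1 stood at 41.2 ± 6.05 and 270 ± 23.2 CPM in N-Ras+AKT controls, and at 183 ± 3.64 and 1136 ± 70.4 CPM in DEN+CCl4 controls (SD, 3 libraries each), with log2 differences of -2.15 and -2.07. Plg averaged 874 ± 28.0 CPM in N-Ras+AKT controls and 3288 ± 390 CPM in DEN+CCl4 controls (log2 difference -1.91). The adjusted p was at most 9.36e-05 for each of these 6 genes.

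Complement was less uniform between the control tumours. C1ra, Masp2 and C2 had log2 differences of -1.67, -1.62 and -1.60, and C8b, Masp1 and Cfb of -1.15, -1.09 and -0.94, all past the threshold. The C8b call ended without N-Ras+AKT control replicate 15 (adjusted p = 0.0652) or DEN+CCl4 control replicate 13 (adjusted p = 0.0561), and with no filter on low counts (adjusted p = 0.0520). With library totals alone C8b, C8g and Cfb did not pass (adjusted p = 0.167, 0.285 and 0.0906). C9 stood at 238, 361 and 279 CPM in N-Ras+AKT controls, against 60.1, 58.2 and 55.1 CPM in DEN+CCl4 controls (log2 difference 2.34, SE 0.44, 5.06-fold, adjusted p = 0.00206). C9 was thus far higher in N-Ras+AKT tumours while the C8 chains, with which its protein assembles, had negative log2 differences of -1.15, -0.89 and -0.79 (C8b, C8g and C8a, the last not past the threshold). Mbl1, Mbl2 and C6 had log2 differences of -0.06, 0.18 and 0.45, and did not pass. Fga and Fgg did not pass either (log2 difference -0.57 and -0.46). F9, Fgb and Pros1 were called lower by small margins, with log2 differences of -0.53, -0.69 and -0.53. Without DEN+CCl4 control replicate 13 the adjusted p was 0.0700 for F9, 0.178 for Fgb and 0.169 for Pros1, and each also lost the call without N-Ras+AKT control replicate 15 (adjusted p = 0.0543, 0.139 and 0.0936). F9 and Fgb did not pass without N-Ras+AKT control replicate 10 (adjusted p = 0.0540 and 0.148), Pros1 not without N-Ras+AKT control replicate 3 (adjusted p = 0.134), Fgb and Pros1 not without DEN+CCl4 control replicate 7 (adjusted p = 0.0612 and 0.0647), and Fgb not without DEN+CCl4 control replicate 8 (adjusted p = 0.0690). In a fit of only the control groups Fgb and Pros1 did not pass either (adjusted p = 0.0547 and 0.0623).

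Other genes of the same systems, which liver and other cells express, gave the setting. Of 29 other coagulation and fibrinolysis genes, 7 rose and 6 fell after depletion in N-Ras+AKT tumours, with a median of -0.05. Of 29 other complement genes tested of 33 listed, 14 rose and 1 fell, with a median of 0.71. Adamts13, the protease that cuts von Willebrand factor, rose by 1.76 (adjusted p = 0.0147), and Vwf itself fell by 1.3 on the log2 scale (adjusted p = 0.00474). Serpine2, an inhibitor of plasminogen activators and thrombin, fell by 2.44 (adjusted p = 0.0140). A2m, a broad protease inhibitor, fell by 3.00 (adjusted p = 0.0340). Fcna (a ficolin), Vsig4 (a complement receptor of macrophages) and Colec10 (a collectin) rose by 1.74, 1.61 and 1.60 (adjusted p from 0.0138 to 0.0345). Vwf and Serpine2 passed without any single N-Ras+AKT library, and each of Adamts13, Fcna, Vsig4, Colec10 and A2m lost the call without control replicate 15 (adjusted p from 0.0505 to 0.0879). Adamts13 did not pass without control replicate 3 (adjusted p = 0.0570), nor Vsig4 without depletion replicate 17 (adjusted p = 0.0545). Fcna did not pass without depletion replicate 11 or 17 or control replicate 3 (adjusted p from 0.0585 to 0.0863), Colec10 without depletion replicate 6 or 17 or control replicate 3 (0.0540 to 0.116) and A2m without depletion replicate 6 or control replicate 3 (0.0922 and 0.0915). Fcna, Colec10 and A2m also did not pass with no filter on low counts (adjusted p = 0.0745, 0.105 and 0.108) or in a fit of only the N-Ras+AKT groups (adjusted p = 0.0502, 0.0674 and 0.0724), and Colec10 not with library totals alone (adjusted p = 0.0530). In DEN+CCl4 tumours none of these 58 tested genes passed (edgeR, 17 at an unadjusted p under 0.05, beside 3186 of all 17013 genes tested).

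Named after their values were seen, enzymes that recycle vitamin K or carboxylate the factors that depend on it rose in N-Ras+AKT depletion tumours. F7, F9 and F10 rose too, whereas F2, the other vitamin K-dependent proenzyme listed, did not pass (adjusted p = 0.445). Vkorc1, which recycles vitamin K, rose by 0.99 (adjusted p = 0.00334), its homologue Vkorc1l1 by 0.60 (adjusted p = 0.0115) and Ggcx, the carboxylase, by 0.69 (adjusted p = 0.0193). Without depletion replicate 17 the adjusted p of Ggcx was 0.0842, without control replicate 3 it was 0.0727 and without control replicate 15 it was 0.0532. The Vkorc1l1 call ended with library totals alone (adjusted p = 0.0726). Of 16 hepatocyte transcription factor genes, 3 rose and 2 fell. Hnf4a, a nuclear receptor that drives many hepatocyte genes, rose by 0.56 (adjusted p = 0.0188). Without depletion replicate 17 the adjusted p of Hnf4a was 0.0879, without control replicate 3 it was 0.0561 and without control replicate 15 it was 0.0692. Its call also ended with library totals alone (adjusted p = 0.0929) and in a fit of only the N-Ras+AKT groups (adjusted p = 0.0625).

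**Figure D5:**
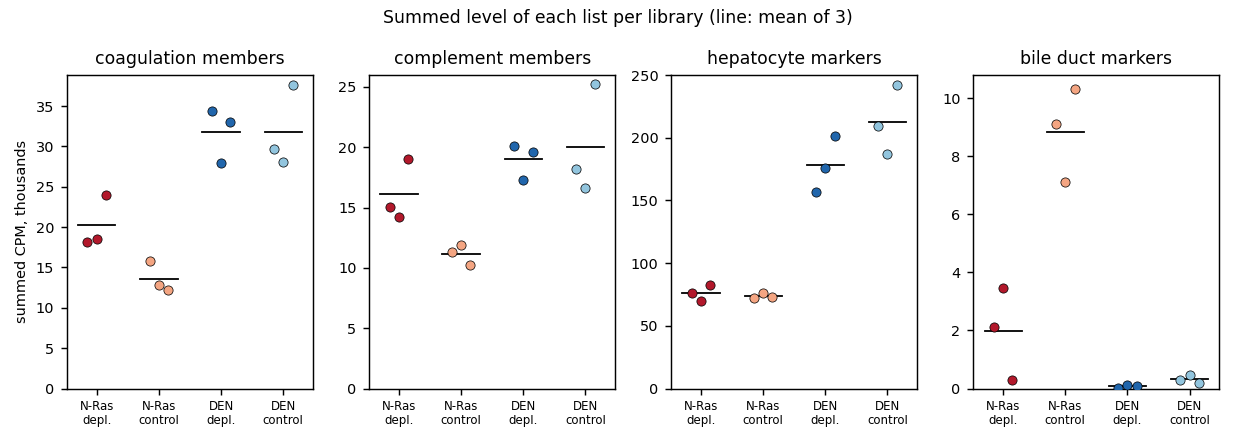
Points are the summed CPM (linear axes from 0, scaled as the axis label says) of the coagulation members, the complement members, the hepatocyte markers and the bile duct markers in each library, and lines are means of 3 libraries. In N-Ras+AKT tumours the sums of both member lists lie above the controls after depletion, those of hepatocyte markers overlap and those of bile duct markers lie below.

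Markers of some other cell types also changed in N-Ras+AKT tumours, in differing directions. Of 6 bile duct markers 4 fell and none rose, and their summed level was 298 to 3469 CPM in depletion tumours, against 7115 to 10300 CPM in controls. Of 6 macrophage markers 5 rose, and their sum was 260 to 368 CPM after depletion, against 62.9 to 146 CPM in controls. Lymphocyte markers (4 of 6 rose) summed to 3.88 to 8.12 CPM after depletion, against 1.54 to 2.32 CPM in controls, and endothelial markers (3 of 6 rose) to 119 to 150 CPM, against 93.2 to 120 CPM. Of 6 stellate cell and fibroblast markers 1 rose, and of the neutrophil, platelet and erythroid markers none passed. The 10 hepatocyte markers, of which 3 rose, summed to 69790 to 82430 CPM in depletion tumours. In controls they summed to 71880 to 76560 CPM, so their sums overlapped. By gene, however, the median log2 change of these markers was 0.58, with 8 of 10 positive. It was 0.65 for coagulation and 0.80 for complement members. Coagulation members summed to 18190 to 24020 CPM after depletion, against 12220 to 15830 CPM in controls. Complement members summed to 14220 to 19040 CPM, against 10280 to 11910 CPM. The part of these cell types in the members' values was not tested.

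In DEN+CCl4 tumours no gene of the 9 cell type marker lists passed. Erythroid markers summed to 3.62 to 19.5 CPM after depletion, against 47.4 to 89.0 CPM in controls, and endothelial markers to 102 to 209 CPM, against 281 to 300 CPM. Lymphocyte markers summed to 0.522 to 1.73 CPM after depletion, against 2.60 to 4.27 CPM in controls, with a median log2 change of -1.92 and 5 of 6 at an unadjusted p under 0.05. Bile duct markers summed to 31.9 to 139 CPM after depletion, against 177 to 479 CPM in controls. Hepatocyte markers summed to 156700 to 201700 CPM, against 187300 to 241800 CPM, so their sums overlapped. By gene, the median log2 change of these 10 markers was 0.02, with 5 positive and 5 negative. It was -0.27 for coagulation and -0.34 for complement members. Of the defining markers, the platelet gene Gp9 was listed at 0 in all 3 depletion and all 3 control libraries, and Gp6 in 3 depletion and 2 control libraries. Their part in the members' values was not tested.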

How the data were processed

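Per the labels' protocols, RNA of snap-frozen liver tumours went into a poly-A library preparation (KAPA mRNA HyperPrep) that was read on a NovaSeq. Whole-number counts per gene were deposited by the authors in 1 table with a column for each of the 12 bulk libraries, without normalization. Per the submitters' processing notes, mm10 was the genome build and Cell Ranger 3.0.2, RSEM 1.3.1 and STAR 2.7.3 were the tools, without a stated role, so these counts could be rounded RSEM estimates. For strand setting, filters and annotation release the sources used here state nothing. Symbols and positions are those of GENCODE M21 on GRCm38, matched by Ensembl identifier for 55154 of 55335 genes (0.00642% of counts fell to the rest). Single-cell data (6 samples) were not analysed here.

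TMM factors for library size ran from 0.773 to 1.323, edgeR's filterByExpr left 17013 genes, and 1 fit of 4 group means over 12 libraries was made with edgeR 4.0.16 in R 4.3.3 (quasi-likelihood, robust, 8 residual degrees of freedom, common biological coefficient of variation 0.238). Tests were two-sided, and the threshold was 0.05 on p-values adjusted by Benjamini-Hochberg over every gene in the fit. "Rose", "fell", "higher" and "lower" are used of tested genes that passed, and elsewhere of the values given. Standard errors (SE) are those implied by the quasi-likelihood statistic. CPM are counts per 1000000 of the TMM-adjusted library size, and CPM per kb divides them by the union of a gene's exons. Each library had 31306617 counts or more. An SD is that of the 3 libraries of a group, whereas the tests used the spread estimated over all 4 groups in the fit. The test was tried on simulated counts first.

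The members and all gene lists were chosen with earlier results of these data known. By rule, values per library are given for up to 6 members past the threshold in each direction and list, and for called members that go against their list, and up to 4 other genes of these systems are named in each direction. Some genes that the rule or the lists hold are not reported here. Alternatives were RLE size factors, library totals alone, no filter, DESeq2 1.42.0, limma 3.58.1 voom, a fit of only the groups compared, each library left out, and, chosen after seeing the data, both libraries that stand apart left out together. No replicates had counts that agreed within sampling noise.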

Additional observations from a re-analysis of the deposited data

Results flagged for a closer look

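For 17 members the effect of Prom1 depletion differed between the tumour models in a direct test of the difference (N-Ras+AKT minus DEN+CCl4, log2, edgeR with Benjamini-Hochberg adjustment). Among coagulation members it was 2.13 for Klkb1, 1.56 for Serpinc1, 1.38 for F13b, 1.01 for F5, 0.98 for Serpinf2 and 0.79 for F7. Among complement members it was 2.66 for Mbl2, 2.66 for C6, 2.24 for C9, 1.99 for C8b, 1.80 for C1ra, 1.63 for C8g, 1.36 for Masp2, 1.19 for C1s1, 1.15 for C2, 1.04 for Mbl1 and 1.02 for Masp1. All 17 had a higher depletion effect in N-Ras+AKT than in DEN+CCl4 tumours, where 7.98% of all genes tested passed as higher. The calls of F5, F7, Serpinf2, C6, C8b, C9, C1s1, Masp1 and Mbl1 each ended without at least 1 single library.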

How the results depend on the processing

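The counts of members that passed moved by over 1.5 times as follows. With library totals alone, 1 coagulation member was lower after depletion in N-Ras+AKT tumours, 3 coagulation members were higher in the difference of depletion effects, and in N-Ras+AKT against DEN+CCl4 controls 4 complement members were higher and 4 lower. In that last comparison F9 (adjusted p = 0.505) and Pros1 (adjusted p = 0.571) also changed sign. With DESeq2, 1 coagulation and 2 complement members were lower after depletion in DEN+CCl4 tumours, where 4.04% of all genes were. In the difference 13 coagulation members were higher with DESeq2, where 10.7% of all genes were. With no filter on low counts, 1 coagulation member was lower in DEN+CCl4 tumours. Without both libraries that stand apart, 7 coagulation members rose in N-Ras+AKT tumours, and 3 coagulation and 7 complement members were higher in the difference. With each library left out in turn, N-Ras+AKT depletion gave 4 to 11 coagulation and 7 to 10 complement members higher and 0 lower, DEN+CCl4 depletion 0 to 1 coagulation and 0 to 2 complement members lower and 0 higher, the difference 3 to 7 coagulation and 5 to 11 complement members higher and 0 lower, and the controls 16 to 18 coagulation and 10 to 11 complement members lower with 1 complement member higher. Over the same left-out fits, 5.6% to 13% of all genes tested were higher after N-Ras+AKT depletion. For DEN+CCl4 depletion 0.0114% to 1.76% of all genes were lower. In the difference 3.74% to 9.16% of all genes were higher, and between the controls 15.4% to 18% were lower. The counts held within 1.5 times with RLE size factors, limma voom and only the groups compared. The cause of these shifts was not tested. A fit with a library left out also has fewer libraries, which was not separated from the effect of the library removed. No paired analysis was possible because the groups compared share fewer than 2 replicate numbers.

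The groups have 3 libraries each, no batch, litter or housing is given, and what the controls lacked is not settled. Prom1 depletion, the tumours' cell makeup and, between models, the time after the last dose cannot be told apart. Reads of close gene copies and of overlapping genes could not be told apart here.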

Other observations

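Many acute phase genes, which the liver induces in inflammation, are secreted beside these proteins. Of 23 such genes, 6 rose and 3 fell after depletion in N-Ras+AKT tumours, with a median log2 change of 0.29. In DEN+CCl4 tumours none passed (edgeR, 8 at an unadjusted p under 0.05, beside 3186 of all 17013 genes tested), and the median was 0.40. The difference of the depletion effects passed as higher for 2 of them and as lower for 3, with a median of -0.29, whereas no clotting or complement member described above passed as lower.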
